A study of Mus musculus with 2 samples.

Results

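Serotonin receptors were examined as 9 genes (Htr1a, Htr1b, Htr1f, Htr2a, Htr2c, Htr3a, Htr4, Htr5a and Htr7), taken by gene symbol from tables that list 43346 mouse genes. The tables hold 14 serotonin receptor genes in all, and the other 5 (Htr1d, Htr2b, Htr3b, Htr5b and Htr6) are given below for comparison. RNA longer than 200 nt was sequenced from 2 pools of 50 layer 5 pyramidal neurons each, the large excitatory output cells of the cerebral cortex, taken by laser capture from wild-type male mouse cortex at an age of 8 months. The strain is written B6NCrl in one label and C57Bl5 or C57Bl6 in others, no transgene or treatment is named, and an antibody field reads Control. Both pools belong to 1 group, are called biological replicates 1 and 2 and carry 1 donor identifier, so whether they came from different animals is not settled, and their spread may be technical only.

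Serotonin reaches the cortex along axons of the raphe nuclei in the brainstem and acts through receptors of several classes. Htr1 and Htr5 receptors couple to Gi/o proteins, which lower cyclic AMP and open potassium channels. Htr2 receptors couple to Gq and phospholipase C, Htr4, Htr6 and Htr7 receptors raise cyclic AMP through Gs, and Htr3 receptors are ion channels opened directly by serotonin. In cortical pyramidal neurons Htr1a is known as an inhibitory receptor and Htr2a as an excitatory one that binds psychedelic drugs, while Htr3a is known from a class of cortical interneurons.

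Of the 9 genes, 3 have more than 1 transcript listed, and the one whose reads were divided among several of them was Htr2c (chromosome X, 146962513 to 147197277, plus strand), the Gq-coupled receptor whose RNA is known to be edited from A to I and to be spliced at more than 1 donor. Exon 5 of 6 in the transcript Htr2c-201 lies at chrX:147169570-147169770 (GRCm38, plus strand), is wholly coding and spans 201 bases. The transcript Htr2c-207 ends the same exon after 106 bases, at position 147169675, and so lacks 95 bases. Its annotated coding sequence is 516 bases, against 1377 bases in Htr2c-201. The exon is shown 5′ to 3′ from the GENCODE transcript, because these letters separate the forms whose shares are given further on. Capitals mark the 95 bases that only the long form keeps.
Htr2c exon 5: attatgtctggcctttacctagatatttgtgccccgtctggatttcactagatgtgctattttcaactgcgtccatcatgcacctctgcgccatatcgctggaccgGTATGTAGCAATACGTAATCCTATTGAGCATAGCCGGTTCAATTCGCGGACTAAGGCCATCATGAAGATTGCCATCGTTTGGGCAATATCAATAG

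The edited stretch of Htr2c lies within those extra bases, 10 bases downstream of the short donor. It was located by translating the coding sequence and finding the codons for isoleucine, arginine, asparagine, proline and isoleucine, at chrX:147169686-147169700. The window from 12 bases before the short donor is shown with these 15 bases in capitals. Transcripts cut at the short donor do not hold the stretch. Editing itself cannot be read from tables of estimated reads.
Htr2c donor and edited stretch: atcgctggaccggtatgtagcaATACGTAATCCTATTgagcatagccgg

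The spliced junctions to the next exon differ between the forms as follows, with the end of exon 5 in capitals and the start of exon 6 in lower case.
Htr2c-201: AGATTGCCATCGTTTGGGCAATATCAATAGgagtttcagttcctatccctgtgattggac
Htr2c-207: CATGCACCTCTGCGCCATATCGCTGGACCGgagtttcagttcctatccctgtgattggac

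Levels are given in TPM, a measure of abundance that allows for transcript length and so lets genes be compared within a library. The tables sum to 24171434 estimated reads for replicate 1 and 27946180 for replicate 2, spike-ins included. With TPM of at least 1 as the limit of detection, 5 of the 9 receptor genes were detected in replicate 1 and 6 of 9 in replicate 2. Among all 21474 protein-coding genes 55.8% and 54.4% reached that limit, a share near that of the 9 genes. The 5 detected in both libraries were Htr2c, Htr1f, Htr2a, Htr1a and Htr1b, and Htr5a passed the limit in replicate 2 only. None of the other 5 serotonin receptor genes reached 1 TPM in either library, so over all 14 the counts were 5 and 6 of 14, a lower share than among coding genes.

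The Gq-coupled Htr2c had 12.2 TPM in the first library and 12.9 TPM in the second (12.5 ± 0.50, SD, n = 2), from 1083 and 1328 reads. It was the most even of the well-detected receptors, above 72.4% of coding genes in replicate 1 and above 73.3% in replicate 2. The other Gq-coupled receptor, Htr2a (chromosome 14, 74640840 to 74709494), stood at 9.59 TPM and 4.66 TPM (7.12 ± 3.49), from 551 and 300 reads. Its level was lower in replicate 2, where it was 36.2% of the Htr2c level, against 78.9% in replicate 1. The Htr2a transcript is 2971 bases long in the tables and 5606 bases long in the later annotation GENCODE M21, so its TPM rests on a shorter model than the one now annotated.

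Among the Gi/o-coupled receptors, Htr1f was highest, with 13.2 TPM in the first library and 8.84 in the second (11.0 ± 3.08, SD, n = 2), from 636 and 477 reads. Htr1f (chromosome 16, 64924729 to 65105854) is the receptor targeted by drugs of the lasmiditan type used against migraine. It led the receptors in replicate 1 and came after Htr2c in replicate 2. Htr1a (chromosome 13, 105443639 to 105448122) stood at 3.40 TPM and 6.08 TPM (4.74 ± 1.90). Htr1b (chromosome 9, 81628291 to 81633828), a receptor known from axon terminals, stood at 2.72 TPM and 4.78 TPM (3.75 ± 1.46). Both were higher in replicate 2, by a similar factor.

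Htr5a (chromosome 5, 27842149 to 27855088), also Gi/o-coupled, was lower, at 0.71 TPM and 1.64 TPM (1.18 ± 0.66, SD, n = 2), from 78 and 201 reads. The coding sequences of Htr1a, Htr1b and Htr1f each lie in 1 exon, whereas those of Htr5a, Htr2a and Htr2c are split over 2, 3 and 4 exons. Htr1a is annotated as a single exon, so no spliced read can mark its RNA. Part of Htr1b is overlapped on the opposite strand by the antisense gene D430036J16Rik, which had 103 and 92.4 estimated reads against 252 and 495 for Htr1b. The posterior SD of the count, 3.48 reads in replicate 1 and 3.68 in replicate 2, was the same for both genes, and whether strand was used in the counting is not given in the sources used here.

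The Gs-coupled receptors were at or below the limit of detection. Htr7 (chromosome 19, 35958734 to 36057507) stood at 0.96 TPM and 0.79 TPM (0.88 ± 0.12, SD, n = 2), from 57 and 52 reads, so it fell just short of the limit in each library. Htr4 (chromosome 18, 62324204 to 62496577) had 4 reads in replicate 1 and 10 in replicate 2, or 0.040 TPM and 0.10 TPM, and was the lowest of the 9 in the mean. The 95% exact Poisson intervals of its level were 0.012 to 0.112 TPM and 0.047 to 0.180 TPM. They overlap, and like every interval here they cover counting error only, since reads without molecular identifiers are not independent molecules.

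The channel gene Htr3a (chromosome 9, 48899213 to 48911099) had 14 reads in replicate 1, or 0.35 TPM, and 0 reads in replicate 2. In replicate 2 a count of 0 allows a level of up to 0.068 TPM, the value of 3 reads. Against that floor the CPM of Htr3a, its reads scaled by library size, was at least 5.23-fold higher in replicate 1. Vip, a neuropeptide of interneurons of the caudal ganglionic eminence, the class known for Htr3a, had 153 and 0.030 TPM. Adarb2, another gene of that class, had 2.51 and 0.29 TPM. In the same class Cnr1, at 28.23 and 37.05 TPM, and Reln, at 15.97 and 18.1 TPM, were higher in replicate 2. Of its 10 genes with enough reads to be compared, 5 were at least 2-fold higher in replicate 1 and 0 in replicate 2. Among all genes tested 10.2% were 2-fold apart in either direction. Of the 11 genes of that class 9 were detected in replicate 1 and 4 in replicate 2, with summed levels of 2856 and 2529 TPM, of which Cck held 2648 and 2471 TPM, and with Sp8 at 0 in both libraries and Sncg and Ndnf at 0 in replicate 2. The part of such cells in the Htr3a reads was not tested, and in pooled cells fewer cells of a type and less RNA per cell cannot be told apart.

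**Figure D1:**
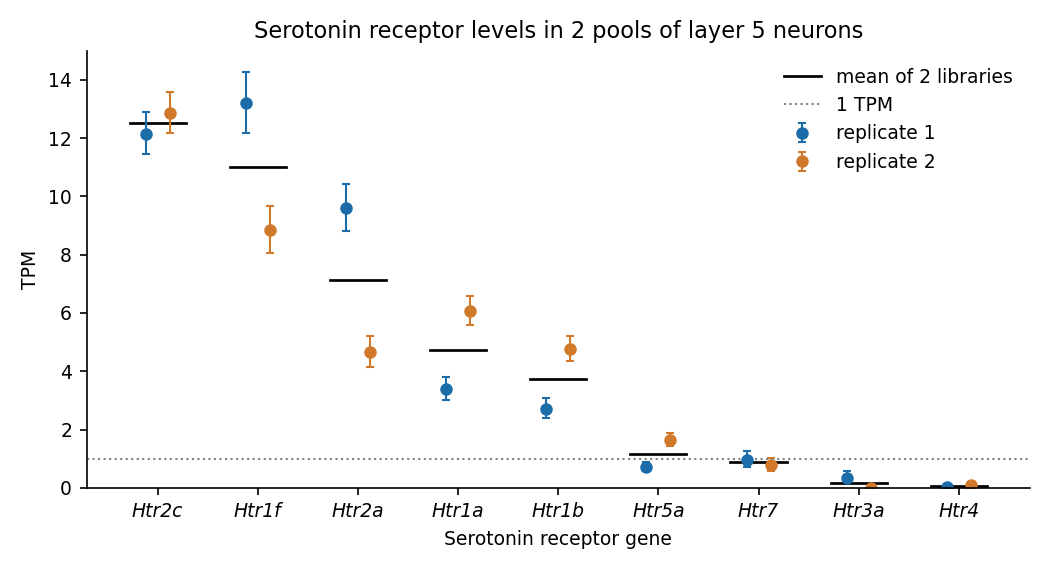
Level of each serotonin receptor gene in TPM (vertical axis) in replicate 1 and replicate 2, ordered by the mean of the 2 libraries (black lines), with 95% exact Poisson intervals of counting error as bars. Htr2c lies close together at 12.2 and 12.9 TPM. The counting intervals of the 2 libraries do not overlap for Htr1f, Htr2a, Htr1a, Htr1b, Htr5a and, at few reads, Htr3a.

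The order of the levels was only partly shared by the libraries. By mean TPM it ran Htr2c, Htr1f, Htr2a, Htr1a, Htr1b, Htr5a, Htr7, Htr3a and Htr4. Of the 8 pairs of neighbours, 4 kept their order in both libraries and differed by more than 1 SD on the log2(TPM + 1) scale. These were Htr1f above Htr2a by 0.61 ± 0.27 (SD, n = 2), Htr1a above Htr1b by 0.27 ± 0.036, Htr1b above Htr5a by 1.13 ± 0.0065 and Htr7 above Htr3a by 0.69 ± 0.21. The pairs Htr2c and Htr1f, Htr2a and Htr1a, Htr5a and Htr7, and Htr3a and Htr4 changed places between the libraries, so their order was not resolved. The widest swing was that of Htr2a against Htr1a, at 1.27 in replicate 1 and -0.32 in replicate 2.

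Summed over the 9 genes, receptor RNA came to 43.1 TPM in the first library and 39.8 in the second (41.4 ± 2.38, SD, n = 2). The 4 Gi/o-coupled genes held 46.4% and 53.7% of it and the 2 Gq-coupled genes held 50.4% and 44.1%. The mean shares of these classes, 50.1% ± 5.12 and 47.3% ± 4.49 (SD, n = 2), differed by less than the spread between the libraries. The 2 Gs-coupled genes held 2.32% and 2.24%, and Htr3a held 0.81% and 0%. Htr2c, Htr1f and Htr2a together held 81.0% of receptor TPM in replicate 1 and 66.3% in replicate 2.

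**Figure D2:**
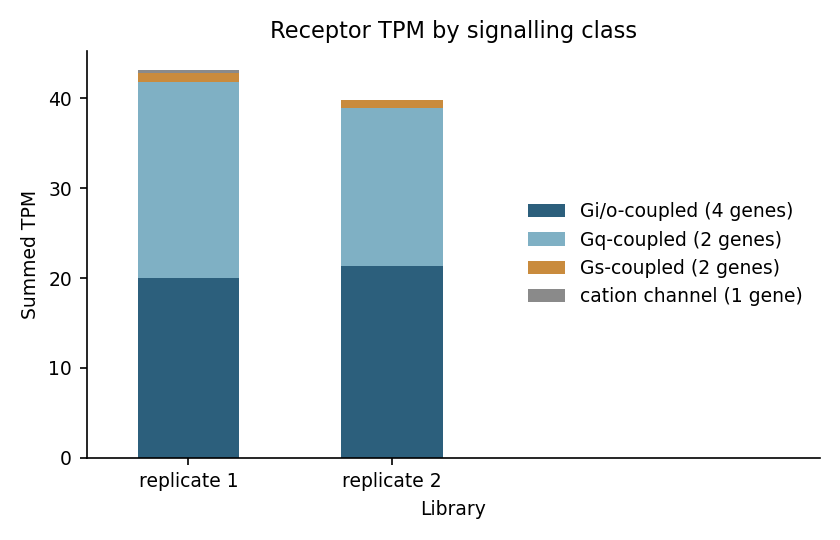
Summed TPM of the 9 serotonin receptor genes in each library (vertical axis), stacked by signalling class. The Gi/o-coupled and Gq-coupled parts are of similar height in both bars, at 20.0 and 21.8 TPM in replicate 1 and 21.3 and 17.5 TPM in replicate 2, and the Gs-coupled part is 1.00 and 0.89 TPM.

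The libraries were then compared for each receptor gene on CPM scaled by TMM, a normalization to the bulk of genes, with a pseudocount of 1. On this scale 0 of the 9 genes were at least 2-fold apart, although Htr5a at -0.999 and Htr2a at 0.98 (log2 of replicate 1 over replicate 2) lay at the edge of that limit. With this pseudocount Htr3a, at 0.60 and 0 CPM, and Htr4, at 0.17 and 0.38 CPM, could not reach 2-fold. The count therefore says nothing of those genes. Among all 17816 genes tested 10.2% were at least 2-fold apart, and among the 13062 genes with a mean CPM between those of the lowest and the highest receptor 13.2%. Of all genes past the limit 62.4% were higher in replicate 1, a split that became 83.8% when the libraries were scaled to their spike-ins. The counts of receptors past the limit ranged from 0 to 3 with other scalings or pseudocounts, and which genes passed is given with the effects of processing. With 1 library on each side these differences have no replicate check.

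Without the pseudocount the ratios of CPM were as follows. Htr2a was 2.06-fold higher in replicate 1, with a 95% exact counting interval of 1.79 to 2.38, and Htr1f was 1.5-fold higher there, with an interval of 1.33 to 1.69. In the opposite direction, Htr1a was 1.79-fold higher in replicate 2 (1.55 to 2.06), Htr1b 1.75-fold (1.5 to 2.05) and Htr5a 2.30-fold (1.76 to 3.02). Htr2c was 1.09-fold higher in replicate 2 (1.01 to 1.19), a direction that turned when the libraries were scaled to their spike-ins (log2 ratio of 0.22). The interval of Htr4 in replicate 2 over replicate 1 ran from 0.643 to 9.74 and that of Htr7 in replicate 1 over replicate 2 from 0.829 to 1.83, so no difference was detectable at this depth.

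An exact conditional binomial test, two-sided and adjusted by Benjamini-Hochberg over all 17816 genes, found 7 of the 9 receptors past an adjusted p of 0.05, against 67.6% of all genes. It compares these 2 libraries and not conditions. Such a share is near the background and is no result about receptors. The exceptions were Htr4 (binomial, adjusted p = 0.241) and Htr7 (adjusted p = 0.355), and Htr2c was near the limit (adjusted p = 0.0435). The median ratio of the 9 genes was -0.13 on the log2 scale, against 0.0046 over all genes tested, with 4 receptors higher in replicate 1 and 5 in replicate 2. Thus receptors of the same class moved in opposite directions, since Htr1f was higher in replicate 1 and Htr1a, Htr1b and Htr5a in replicate 2.

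**Figure D3:**
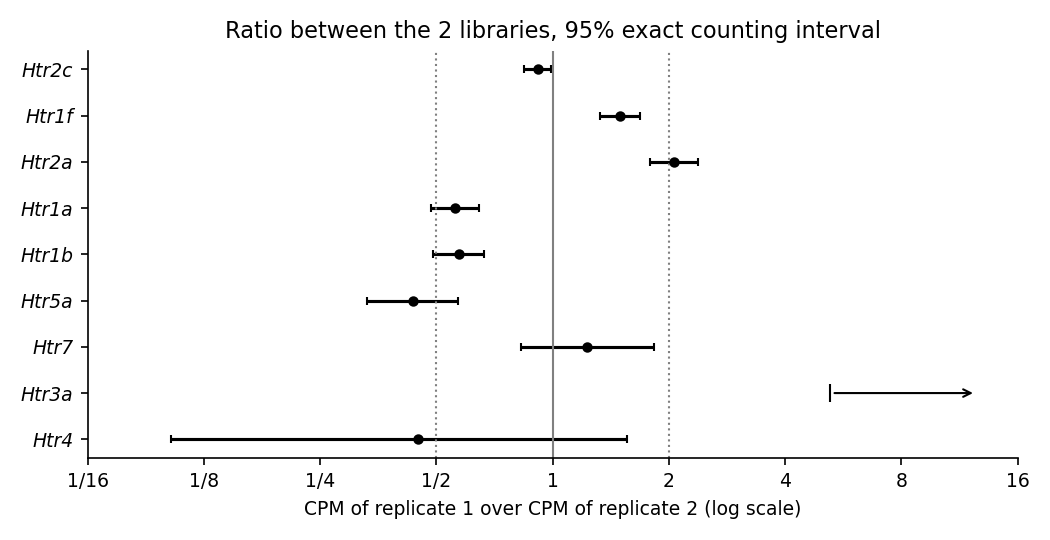
Ratio of CPM in replicate 1 to that in replicate 2 for each serotonin receptor gene (horizontal log axis), with 95% exact counting intervals, and dotted lines at 2-fold. Htr2a and Htr1f lie to the right of 1 and Htr1a, Htr1b and Htr5a to the left. The arrow of Htr3a starts at 5.23, its ratio to a floor of 3 reads in replicate 2, which is not a 95% limit.

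Markers of cell types differed between the pools as well. All 7 glutamatergic and all 8 layer 5 genes were above the detection limit in both pools, with summed levels of 619 and 799 TPM and of 2372 and 4856 TPM. Nrgn alone held 335 and 521 TPM of the glutamatergic sums. Of the 7 glutamatergic genes 0 were at least 2-fold apart, and their median log2 ratio of replicate 1 over replicate 2 was -0.033. Pcp4 alone held 2134 and 4468 TPM of the layer 5 sums. Of the 8 layer 5 genes, 3 were at least 2-fold higher in replicate 2 and 0 in replicate 1. Car3 cells, a deep-layer excitatory type, had 6 of 6 genes detected in replicate 1 and 2 of 6 in replicate 2, summing to 814 and 45.2 TPM, with Oprk1 at 0 in replicate 2. Layer 6 genes (6 and 2 of 7, 73.6 and 30.9 TPM, Nxph4 at 0 in both), interneurons of the medial ganglionic eminence (6 of 6 in both, 3287 and 1300 TPM) and microglia (8 and 6 of 8, 131 and 50.7 TPM) also summed higher in replicate 1, as did pan-GABAergic genes (6 of 6 in both, 231 and 147 TPM) and oligodendrocyte precursors (4 and 3 of 4, 16.3 and 6.19 TPM). Sst alone held 2506 and 844 TPM of the sums for interneurons of the medial ganglionic eminence. Of those 6 genes, 2 were at least 2-fold higher in replicate 1 and 0 in replicate 2. Lhx6 (5.02 and 5.29 TPM) and Sox6 (2 and 2.4 TPM) were not higher in replicate 1. Intratelencephalic layer 5 genes (4 of 5 in both, 94.7 and 271 TPM) and extratelencephalic ones (6 and 8 of 8, 141 and 180 TPM) summed higher in replicate 2. These lists are not separate from the layer 5 list, which shares Etv1 with the first and Fezf2, Bcl11b, Crym and Ldb2 with the second. Among extratelencephalic genes Bcl11b (12.19 and 10.19 TPM) and Crym (49.7 and 40.35 TPM) were higher in replicate 1 and the others in replicate 2. Near-projecting layer 5 genes (3 of 5 in both, 19.8 and 9.95 TPM) were mixed, with Lypd1 at 16.7 and 3.1 TPM and Tshz2 at 1.51 and 4.79 TPM. Astrocyte genes summed to 421 and 469 TPM, oligodendrocyte genes to 477 and 612 TPM and endothelial genes to 114 and 103 TPM. Htr2a and Htr1f were higher in the library with higher sums of Car3, layer 6, interneuron and microglial genes. Htr1a, Htr1b and Htr5a were higher in the library with higher sums of glutamatergic, layer 5, intratelencephalic and extratelencephalic genes. Sums of oligodendrocyte and astrocyte genes were higher in that library too. The part of these cell types in the receptor differences was not tested.

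Of cell types known for a given serotonin gene, choroid plexus, known for Htr2c, had 0 of 6 markers detected in either library. Ttr, known as its most abundant transcript, stood at 0.040 and 0 TPM, Otx2 and Aqp1 at 0 in both libraries, and the summed levels were 0.78 and 0.34 TPM, against 12.2 and 12.9 TPM of Htr2c. Of 8 markers of raphe serotonin neurons 2 and 1 were detected, Slc18a2 at 4.31 and 7.33 TPM and Ddc at 1.54 and 0.98 TPM. The genes that define those neurons were lower, with Tph2, which makes serotonin in the brain, at 0.18 and 0.070 TPM, Fev at 0 in both and the serotonin transporter Slc6a4 at 0 and 0.35 TPM.

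The remaining 5 serotonin receptor genes were below the limit of detection, though Htr6 and Htr2b had higher mean levels than Htr3a and Htr4. Htr6, which is Gs-coupled, stood at 0.80 and 0.38 TPM from 25 and 12 reads, and Htr2b at 0.67 and 0.32 TPM from 22 and 5 reads. Htr2b lies within the bounds of Psmd1, a proteasome gene on the opposite strand with 4940 and 5592 reads, and whether any of its reads belong to Psmd1 was not tested. Htr1d had 2 and 0 reads, and Htr3b and Htr5b had 0 in both libraries. For Htr3b, the partner subunit of Htr3a, the floor of 3 reads is 0.065 and 0.058 TPM. Neither Htr6 nor Htr2b reached the lowest of the 5 well-detected receptors.

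Transcript values were used for replicate 1. In 8 of the 9 genes the leading transcript held 100% of the TPM, and 6 of these genes have only 1 transcript in the table. Htr1b was assigned wholly to Htr1b-202 of 2 listed transcripts and Htr7 to Htr7-202 of 6. For Htr7 the choice is uncertain, as the count of Htr7-202 had a posterior SD of 11.99 reads on 57. The forms Htr7-205, Htr7-203 and Htr7-204, each given 0 reads, had posterior SDs of 11.96, 10.58 and 10 reads. Of these, Htr7-203 and Htr7-204 are annotated for nonsense-mediated decay, with coding sequences of 594 bases. The form Htr7-202 has a coding sequence of 1344 bases, and the form Htr7-201, of 1410 coding bases, was given 0 reads.

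Htr2c was the exception, with reads given to 4 of its 7 transcripts. The short-donor form Htr2c-207 held 72.9% of Htr2c TPM (8.86 TPM, 807 reads), and Htr2c-201, which keeps the capitals of the exon printed above, held 23.2% (2.82 TPM, 262 reads). The transcripts annotated as noncoding, Htr2c-205 and Htr2c-206, held 2.41% and 1.55%. Htr2c-202, which also has a coding sequence of 1377 bases, was given 0 reads with a posterior SD of 24.3 reads. More Htr2c RNA of replicate 1 was thus assigned to the form with the shorter reading frame than to the full-length receptor.

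Few reads would fall at the donor that separates these forms. Of the 4648 windows of 100 bases in Htr2c-201, 194 touch the extra bases, and of 4555 in Htr2c-207, 99 cross its own junction. At even coverage 10.9 of the reads given to Htr2c-201 and 17.5 of those given to Htr2c-207 would fall there, 28.5 in all. The lengths of the forms, 4747 and 4654 bases, do not differ by exactly the 95 extra bases. Reads on other differences between them were not counted. The posterior SDs of the counts were 86.6 and 80.4 reads, or 0.331 and 0.0996 of the count. For replicate 2 only the length of the gene, a mean over transcripts weighted by their shares, bears on the forms. It was 4552.96 bases in replicate 1 and 4706.12 bases in replicate 2, against 4654 bases for Htr2c-207 and 4747 for Htr2c-201. A mix of those 2 transcripts alone would have the length seen in replicate 2 at 56.0% Htr2c-201, and with Htr2c-202 (4883 bases) as the longest form at least 22.8% of the TPM lay in transcripts longer than Htr2c-207. The share of the short form thus cannot be given for replicate 2, and the value of 72.9% has no replicate.

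**Figure D4:**
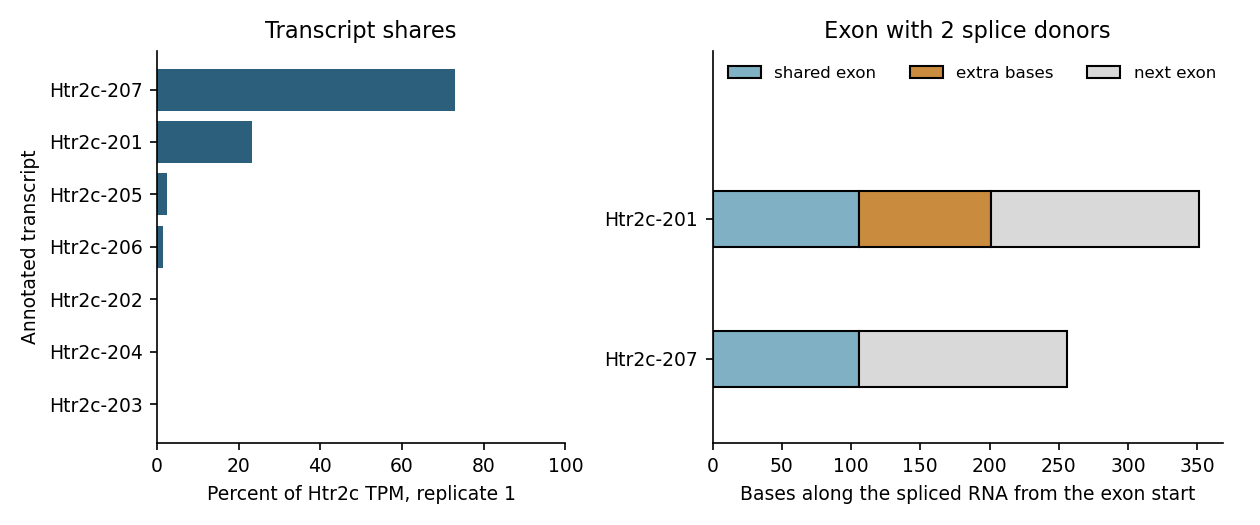
Left, percent of Htr2c TPM held by each annotated transcript in replicate 1 (horizontal axis). Right, the exon with 2 donors and the start of the next exon, in bases along the spliced RNA, where Htr2c-207 (72.9% of TPM) lacks the 95 extra bases that Htr2c-201 (23.2%) keeps.

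Within Htr2c also lie 7 annotated microRNA genes and the small nucleolar RNA Snora35, among them Mir448 and Mir764. The tables gave the microRNA genes 0 reads in both libraries and Snora35 0 and 1 read, in libraries made from RNA longer than 200 nt. These values therefore say nothing of the mature small RNAs.

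Genes of the pathways on which the receptors act had medians above that of the receptors in both pools, and 10.2% is again the share of all genes past 2-fold. Of 8 genes of Gi/o proteins and their potassium channels all were detected and 0 were at least 2-fold apart, with Gnao1 at 154 and 99.6 TPM and Gnai1 at 110 and 95.1 TPM. Of 8 genes of Gq signalling 0 were 2-fold apart, with the kinase Prkcb at 263 and 382 TPM. Of 10 genes of Gs and cyclic AMP signalling 0 were 2-fold apart, with Gnas, the Gs subunit, at 678 and 638 TPM and Prkacb, a catalytic subunit of protein kinase A, at 84.1 and 125 TPM.

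Among 11 genes of receptor partners, S100a10, known as p11 and as a partner of Htr1b and Htr4, stood at 129 and 218 TPM, and the scaffold Dlg1 at 40.7 and 38.8 TPM. The caveolin gene Cav1, at 5.64 and 0.68 TPM, was the 1 partner at least 2-fold apart. Of the RNA editing enzymes, Adarb1, known to edit Htr2c, stood at 18.5 and 18.9 TPM and Adar at 7.44 and 9.41 TPM, whereas Adarb2 was more than 2-fold higher in replicate 1. Of 5 genes of serotonin breakdown and low-affinity uptake 3 were detected in each library and 0 of the 4 with enough reads to be compared were 2-fold apart, among them the dehydrogenase Aldh2 at 7.57 and 7.90 TPM and the monoamine oxidase Maoa at 6.13 and 6.18 TPM.

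Set beside other receptor families, the 9 serotonin receptor genes had medians of 2.72 and 4.66 TPM. The 14 genes of muscarinic and nicotinic acetylcholine receptors had medians of 1.21 and 1.00 TPM, led by Chrm1 at 12.4 and 17.4 TPM and followed by Chrna4 at 8.47 and 11.4 TPM. The 18 genes of dopamine, noradrenaline, orexin and cannabinoid receptors had medians of 1.42 and 1.07 TPM, led by Cnr1 at 28.2 and 37.0 TPM and followed by Adrb1 at 4.89 and 6.22 TPM. On log2(TPM + 1) the serotonin median lay 1.17 ± 0.57 (SD, n = 2) above the first and 1.04 ± 0.59 above the second. It stood at -1.36 ± 0.29 relative to the median of the 8 metabotropic glutamate receptors, led by Grm5 at 53.1 and 34.3 TPM and Grm3 at 18.0 and 26.3 TPM. The 9 genes leave out 5 serotonin receptors that were below 1 TPM in both libraries, and over all 14 the medians were 0.76 and 0.58 TPM. The differences then turned to -0.29 and -0.43 against the acetylcholine and the dopamine to cannabinoid families, so the serotonin family as a whole did not stand above them. With 2 libraries no exact test between the families can fall below p = 0.5, and none was run.

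**Figure D5:**
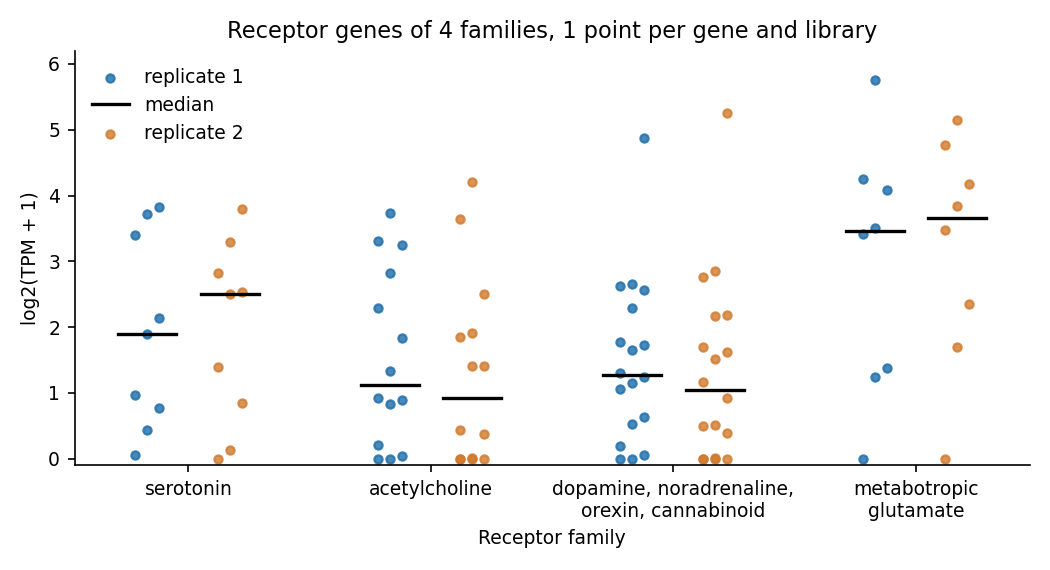
Level of each receptor gene as log2(TPM + 1) (vertical axis) in 4 families, 1 point per gene and library, with the median of each library as a black line. The 9 serotonin genes spread from 0 to nearly 4, with medians between those of the metabotropic glutamate receptors and those of the other families.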

How the data were processed

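The gene table that the authors deposited for either library holds expected counts, which are estimated reads per gene, TPM scaled over all features including spike-ins, and FPKM. A deposited transcript table of replicate 1 gives the percent of gene TPM per transcript. Per the text files deposited with them, and per the file headers, these come from transcriptome alignments on mm10 with GENCODE M4; aligner, quantifier and strand use: not given in the sources used here. The lengths and posterior SDs are the authors' deposited values.

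GENCODE M21 (GRCm38, the build of the files) gave symbols, exons and sequences, and 42462 of 43346 gene identifiers matched. The 26248 entries with numeric identifiers and 96 spike-ins were left out of library sizes. Replicate numbers come from the labels. Expected counts were rounded, scaled by TMM (edgeR 4.0.16, R 4.3.3) and compared over genes with counts summing to at least 10 by an exact conditional binomial test. It was also run on simulated libraries without spread beyond counting error. Such a run cannot show how the test holds for real libraries. DESeq2 1.42.0 gave alternative size factors. Python 3.11.15, pandas 2.3.3 and scipy 1.17.1 were used.

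The members, 17 marker lists, 6 pathway lists and 3 receptor families were chosen with earlier results of these data known. The rule for named genes was all 14 serotonin receptor genes, in every list the 2 genes highest in mean TPM, any gene set beside a receptor result, the leading transcript of each receptor and the next where the leading share was under 80%. Departing from it, marker lists are given as sums, and other genes were named after their values were seen. These were Cav1, Adarb2, Psmd1, Reln, Lhx6, Sox6, Cnr1 among interneuron genes, and markers at 0. A gene that the rule would name is not reported here. Alternatives were another unit, limit, scaling, pseudocount, filter and each library alone.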

Additional observations from a re-analysis of the deposited data

How the results depend on the processing

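The number of receptor genes at least 2-fold apart, 0 with TMM, was 1 with total gene counts (Htr2a), 1 with spike-in totals (Htr2a), 1 without the filter on low counts (Htr5a) and 3 with a pseudocount of 0.1 (Htr2a, Htr5a and Htr3a), and 0 with DESeq2 size factors. Of all genes compared, 10.2% to 24.3% were 2-fold apart with the filter and 4.20% without it. Spike-in totals moved the median of all genes from 0.0046 to 0.31 on the log2 scale and the ratio of Htr2c from -0.13 to 0.22, so its direction depends on the scaling. Detection in both libraries ranged from 5 to 7 genes. Against the acetylcholine family the difference of 1.17 was 1.79 with a pseudocount of 0.1 TPM, 0.36 over genes averaging 1 TPM or more in either list and -0.29 with all 14 serotonin genes. Against the dopamine to cannabinoid family 1.04 became -0.43 with all 14. Against metabotropic glutamate receptors -1.36 became -0.95 over genes averaging 1 TPM or more in either list and -2.83 with all 14. The use of all 14 genes against other families was chosen after seeing the data. The Gs-coupled share of 2.28% was 3.59% with all 14 genes. With 1 library alone the detected genes were 5 to 6, the family differences 0.77 to 1.58, 0.62 to 1.46 and -1.56 to -1.15, and the class shares 46.4% to 53.7%, 44.1% to 50.4%, 2.24% to 2.32% and 0% to 0.81%. At this depth the floor of 3 reads is 0.068 TPM for Htr3a in replicate 2. The cause of these shifts was not tested. No paired analysis was possible because there is 1 group.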
